A study of Zea mays with 2 samples.

Results

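Plasma membrane intrinsic proteins (PIP) are the aquaporins of the plant cell surface. The PIP genes of maize were read by 16 probe sets of 10 genes, out of 17621 maize probe sets on the Affymetrix Maize Genome Array. The members were chosen by name alone: a probe set belonged to the family where its 1 paired gene carried a PIP1 or PIP2 name in the array's annotation or in RefSeq, and all 16 were found in RefSeq. They covered 4 gene entries of the PIP1 group, 1 of which carries the names PIP1-3 and PIP1-4 together, and 6 genes of the PIP2 group, PIP2-1 to PIP2-6. The comparison was between stems of the dominant dwarf mutant D11 and stems of the inbred line Mo17, the wild type (WT), at tassel emergence, with 1 array per genotype. D11 arose among F1 plants of Mo17 crossed with the inbred line HN06 and was kept by crossing it again and again to Mo17, B73 and W22. The sources used here do not state which of these backgrounds the D11 plants of the array had, nor how many plants went into each RNA sample. A D11 over WT ratio can therefore hold differences of genetic background, and with 1 array per genotype no test was made and no error can be given.

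Aquaporins are pores of the membrane through which water moves along its gradient. In maize, PIP2 proteins raise the water permeability of frog oocytes when they are made there alone. Maize PIP1 proteins do so little by themselves, and they reach the cell surface together with PIP2 proteins, with which they form mixed tetramers. Cells that expand, such as those of a growing internode, take up water through the plasma membrane and store most of it in the vacuole, whose membrane carries its own aquaporins.

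The values are MAS 5.0 signals, intensities on a linear scale that were corrected for background and scaled per array. Fold change was the D11 signal over the WT signal. The Tag and TrpnX control probe sets, designed against sequences absent from maize, went up to 24.7 in D11 against 27.6 in WT, and a signal no higher than this is called background here. Of the 16 PIP probe sets, 14 were above background in both stems and 2 in neither. The 63 probe sets for bacterial spike transcripts, added in equal amounts, differed by at most 1.38-fold between the arrays, with an SD of their log2 ratios of 0.20. They show technical error from the steps after they were added, not that between plants. The secondary wall genes cesa10, cesa11, CesA12 and bk2, which mark maturing stems, were all above background, with signals of 1637 to 3559 in D11 and 1606 to 4295 in WT. Of 8 probe sets for antenna proteins and the Rubisco small subunit, 7 were above background in both stems. Their median log2 ratio was -0.08, and it was -0.03 over all 8. The 15 probe sets of the leaf list, which adds C4 enzymes, had a median of -0.22. Of these 15, 3 (20.0%) were at least 2-fold lower in D11 and 0 higher, against 9.83% and 9.93% of all maize probe sets. More than 1 of these 3 read the same gene, whose brightest probe set was 1.23-fold lower in D11. Above background in both stems, 1 of 12 (8.33%) was at least 2-fold lower, against 3.95%. Of 8 probe sets for kernel storage proteins, 7 were at background. The other, of the zein gene gz27, had 1245 in D11 against 686 in WT, 1.82-fold higher and beyond the spikes. Other probe sets of gz27 were among those at background, with 7.3 in D11 against 24.0 in WT and 2.7 against 5.2. At background they give no ratio, so the higher signal has no check from them. The part of gz27 and of the leaf genes in the PIP ratios was not tested. The ratio of 3′ to 5′ signal, a sign of RNA integrity, was 1.34 to 4.88 in D11 and 1.84 to 3.94 in WT over 5 control transcripts, and it was lower in D11 for 4 of them. In whole stems, fewer cells of a type and less RNA per cell cannot be told apart.

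**Figure D1:**
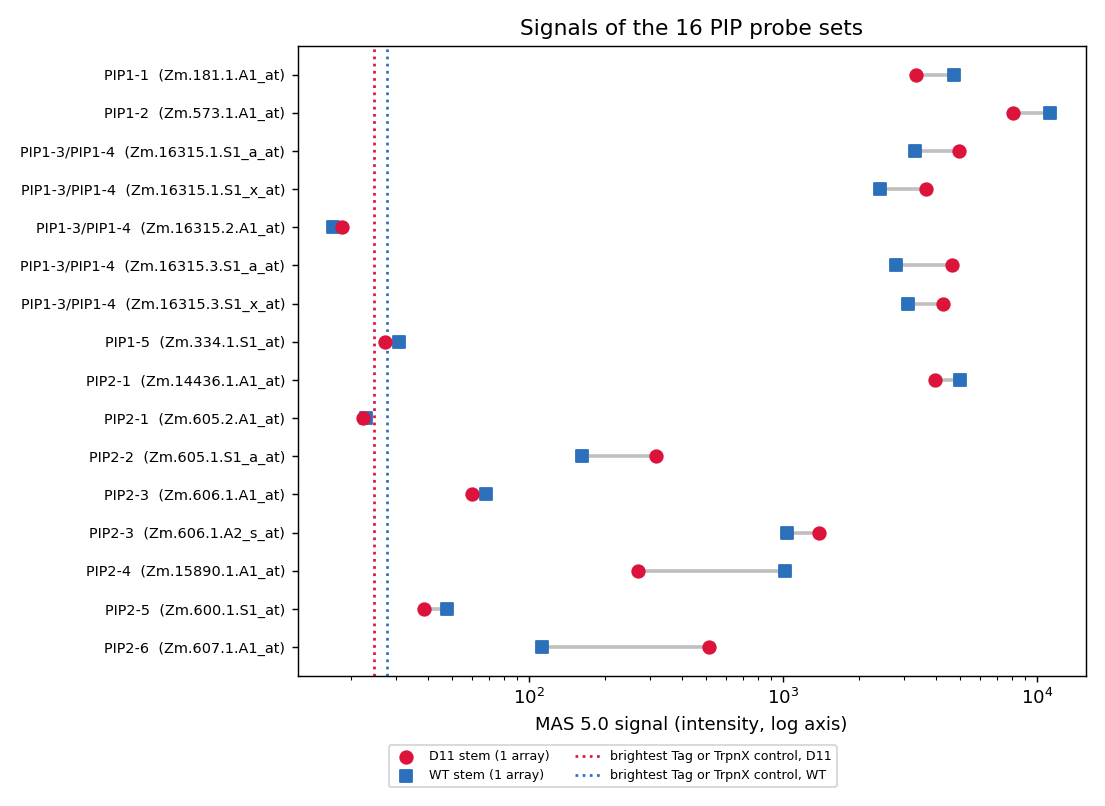
MAS 5.0 signal of each PIP probe set in the D11 stem (circles) and the WT stem (squares), 1 array each, on a log axis in units of intensity, with dotted lines at the brightest Tag or TrpnX control of each array. The pairs of PIP2-6 and PIP2-4 are the widest apart, in opposite directions, and 2 probe sets lie left of both lines, while signals of different probe sets are not comparable with each other.

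PIP2-6 was the 1 member with a signal at least 2-fold higher in the D11 stem, and PIP2-4 the 1 member with a signal at least 2-fold lower. The other 14 probe sets differed less than 2-fold, 12 of them with signals above background in both stems. These counts, 1 of 16 (6.25%) in each direction, were no larger than the background of the arrays, where 9.93% of all maize probe sets were at least 2-fold higher and 9.83% at least 2-fold lower. Among maize probe sets above the controls in both arrays, the shares were 6.2% higher and 3.95% lower, against 1 of 14 PIP probe sets (7.14%) in each direction. No member reached the 5-fold difference used in the methods of the study, which 2.26% of all maize probe sets passed as higher and 2.57% as lower.

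The PIP2 gene PIP2-6 (LOC541891) had a signal of 511 in D11 against 113 in WT. This is 4.54-fold higher in D11, a log2 ratio of 2.18. The D11 signal was over the median of its array, which was 190.6, and the WT signal was under the WT median of 165.4. With 24.7 added to every signal, which damps the ratios of weak signals, the value was 3.90-fold. No second probe set reads this gene, so the difference has no check from other probes.

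PIP2-4 (LOC541890), whose product carries an export signal that takes it out of the endoplasmic reticulum toward the cell surface, had a signal of 270 in D11 against 1024 in WT. This is 3.79-fold lower in D11, a log2 ratio of -1.92. Both signals were over the medians of their arrays. With the same constant added the value was 3.56-fold lower. PIP2-4 was also read by 1 probe set alone.

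PIP2-2 (LOC542644) had a signal of 318 in D11 against 163 in WT, which is 1.95-fold higher and just short of 2-fold. It was also read by 1 probe set alone, whose ID shares its cluster number with a probe set paired with PIP2-1. PIP2-2 and PIP2-6 thus had higher signals in D11, and PIP2-4 a lower one, all beyond the largest ratio of a spike transcript.

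For PIP2-1 (LOC541888), an active water channel of maize and the partner used in many studies of PIP1 transport to the membrane, the probe set above background had a signal of 3977 in D11 against 4990 in WT. This ratio of 0.80 lay within the range of the spike transcripts. A second probe set paired with PIP2-1 had 22.3 in D11 against 22.9 in WT, at background in both stems, and gives no ratio. Its ID shares the cluster number of the PIP2-2 probe set, so which of these genes it reads is uncertain. In the RefSeq annotation (Zm-B73-REFERENCE-NAM-5.0), PIP2-1 and PIP2-6 lie near each other with 2 annotated genes between them, 1 of which codes for a protein. The neighbours had a ratio of 0.80 for PIP2-1 and 4.54 for PIP2-6.

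The readings of PIP2-3 (LOC541889) lay on opposite sides of equality. One probe set had 60.0 in D11 against 68.2 in WT, a ratio of 0.88, and the other had 1383 in D11 against 1043 in WT, 1.33-fold higher. The ID of the second ends in _s_at, which marks probes that match transcripts of several genes, so its signal can hold RNA of related genes. Neither ratio was beyond that of the spike transcripts. For PIP2-5 (LOC542619), which in maize is best known from roots, the signal was 38.7 in D11 against 47.5 in WT. This ratio of 0.81 was within the spread of the spikes, from signals not far above background.

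**Figure D2:**
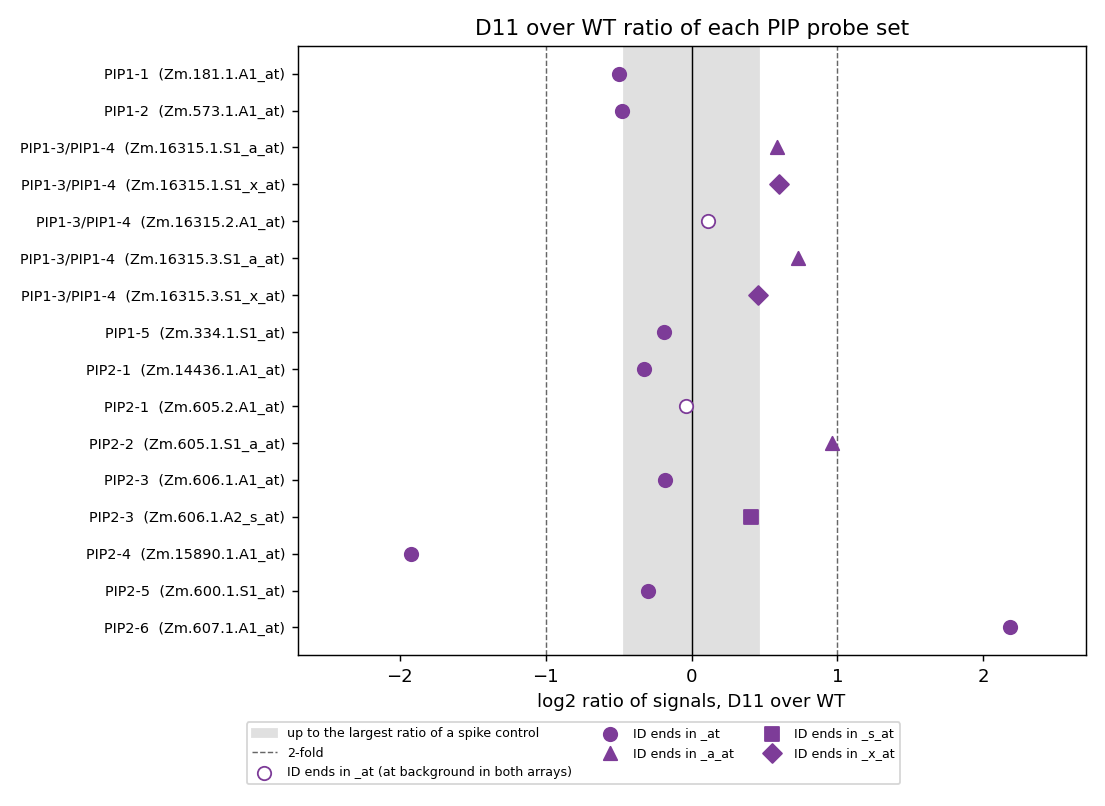
Log2 ratio of D11 over WT signal for each PIP probe set, with the shape giving the ending of the probe set ID, open symbols for signals at background in both arrays, a grey band up to the largest ratio of a spike transcript (1.38-fold) in either direction and dashed lines at 2-fold. PIP2-6 at 2.18 and PIP2-4 at -1.92 lie beyond the dashed lines, and PIP2-2 at 0.97 just inside.

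Within the PIP1 group the genes went in both directions, each by less than 2-fold. PIP1-1 (LOC542434) had a signal of 3350 in D11 against 4736 in WT, which is 1.41-fold lower in D11. PIP1-2 (LOC541779), the PIP1 member in which the need for a PIP2 partner was studied in maize, had 8061 in D11 against 11236 in WT, 1.39-fold lower. Both values were slightly beyond the largest spike ratio of 1.38-fold, so they exceeded the error seen in the spikes by little.

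The gene entry named PIP1-3 and PIP1-4 (LOC541886) was read by 5 probe sets, the most of any member. In 4 of them the signal was above background and higher in D11. The first had 4958 in D11 against 3306 in WT (1.50-fold), and the second 3648 in D11 against 2405 in WT (1.52-fold). The third had 4639 in D11 against 2793 in WT (1.66-fold), and the fourth 4262 in D11 against 3102 in WT (1.37-fold). Thus 4 readings of this gene gave 1.37-fold to 1.66-fold higher signals in D11, and 3 of them exceeded the largest spike ratio. These readings are not independent, as the probe sets come in pairs on the same target, and 2 of them have IDs ending in _x_at, which marks probes that can bind related sequences. The fifth probe set had 18.5 in D11 against 17.1 in WT, at background in both stems. PIP1-5 (LOC542014), which is known from maize roots, had 27.1 in D11 against 30.9 in WT. These signals were hardly above background, so its ratio of 0.88 says little.

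Over the whole family, 8 probe sets had a ratio over 1 and 8 under 1. The median log2 ratio was 0.04, against 0.03 for all maize probe sets, but this 0.04 lies midway between the 2 probe sets at background. Above background in both stems the median was 0.11 over 14 PIP probe sets, against 0.06 over 12462 maize probe sets. By group, the median above background was 0.46 over 7 probe sets of PIP1 and -0.18 over 7 of PIP2. With the probe sets at background it was 0.29 over 8 of PIP1 and -0.11 over 8 of PIP2. The PIP1 values rest on the several probe sets of PIP1-3/PIP1-4, since the other 3 PIP1 genes had ratios under 1. With each gene counted once by the mean of its probe sets, 4 of the 10 genes were higher in D11 and 6 lower, and the median was -0.19. PIP2 held the widest range, with log2 ratios of -1.92 to 2.18, and PIP1 ran between -0.50 and 0.73.

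Differences beyond the largest spike ratio were seen in 8 of the 14 PIP probe sets above background, with 5 higher in D11 (35.7%) and 3 lower (21.4%). Of all maize probe sets above the controls in both arrays, 21.1% were higher by more than this ratio and 14.9% were lower. The PIP shares were larger, but 3 of the 5 higher probe sets read the same gene. Of the 3 lower, PIP1-1 (1.41-fold) and PIP1-2 (1.39-fold) barely passed the largest spike ratio of 1.38-fold. Whether the PIP shares differ from those of all maize probe sets was not tested.

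**Figure D3:**
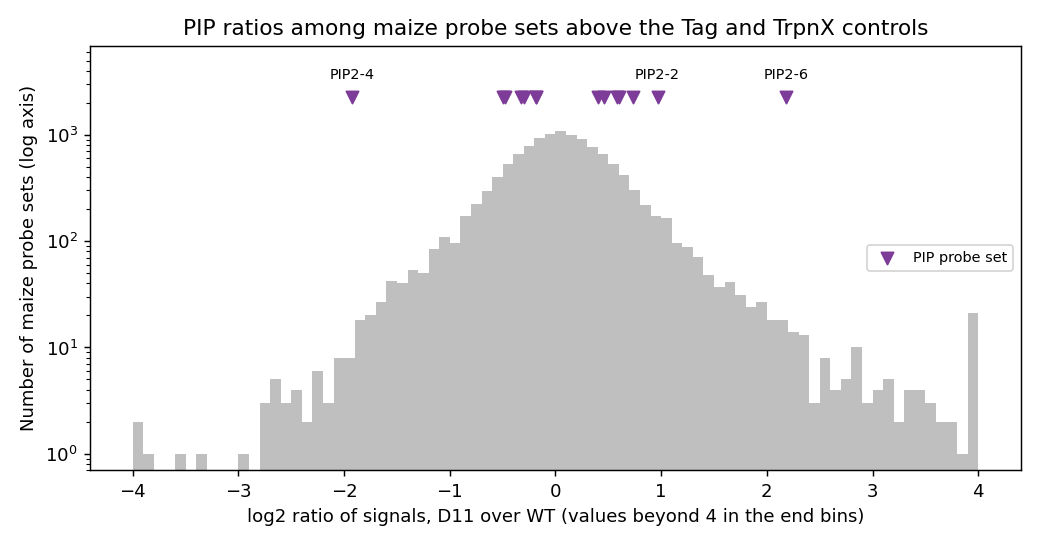
Number of maize probe sets, on a log axis, by log2 ratio of D11 over WT signal, for the 12462 probe sets above the Tag and TrpnX controls in both arrays, with triangles at the ratios of the 14 PIP probe sets among them. Most triangles stand over the body of the distribution, and those of PIP2-4 and PIP2-6 over its flanks.

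The other aquaporins of the array were read by 20 probe sets. Tonoplast intrinsic proteins (TIP) are the water channels of the vacuole membrane, and of their 10 probe sets 5 were above background in both stems. TIP2-2 (LOC541895) had a signal of 53.4 in D11 against 542 in WT, 10.2-fold lower in D11, and TIP4-4 (LOC542647) had 705 in D11 against 122 in WT, 5.76-fold higher. TIP1-1 (LOC541675), a vacuolar water channel of maize, had 3304 in D11 against 5229 in WT, 1.58-fold lower. TIP2-1 (LOC541894) had 357 in D11 against 595 in WT, 1.66-fold lower. The TIP genes thus also went in both directions. Of these 5 probe sets, 1 (20.0%) was at least 2-fold higher and 1 (20.0%) at least 2-fold lower. The shares of all maize probe sets above the controls were 6.2% and 3.95%. The median log2 ratio of all 10 TIP probe sets was -0.31, and -0.66 over the 5 above background.

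The NOD26-like intrinsic proteins (NIP) carry small uncharged solutes such as silicic acid. NIP2-3 (LOC542497), also named Lsi6 and a silicon channel of maize, had a signal of 2324 in D11 against 70.7 in WT, which is 32.9-fold higher in D11. For NIP2-2 (LOC541884) the signal was 778 in D11 against 22.1 in WT. The WT value was at background, so the ratio is a bound computed with the brightest control, at least 28.2-fold higher in D11. NIP1-1 (LOC542741) had 392 in D11 against 1047 in WT, 2.67-fold lower. NIP2-1 (LOC542643), also named Lsi1 and the silicon channel of roots, had ratios of 1.31 and 1.18 by both probe sets above background, within the range of the spikes. The median log2 ratio was 0.24 over the 5 NIP probe sets above background in both stems, and 0.30 over all 7, the value of a probe set at background. The 3 probe sets of the small basic intrinsic proteins (SIP), aquaporins of the endoplasmic reticulum, had log2 ratios between -0.22 and 0.23, all within the range of the spikes. Of the 36 aquaporin probe sets in all, the 4 at least 5-fold different, in signal or by bound, were TIP2-2, TIP4-4, NIP2-3 and NIP2-2. None came from PIP or SIP. Of all maize probe sets, 2.26% were at least 5-fold higher and 2.57% at least 5-fold lower. Whether PIP differed from the other aquaporin families was not tested, as 1 array per genotype gives no test.

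**Figure D4:**
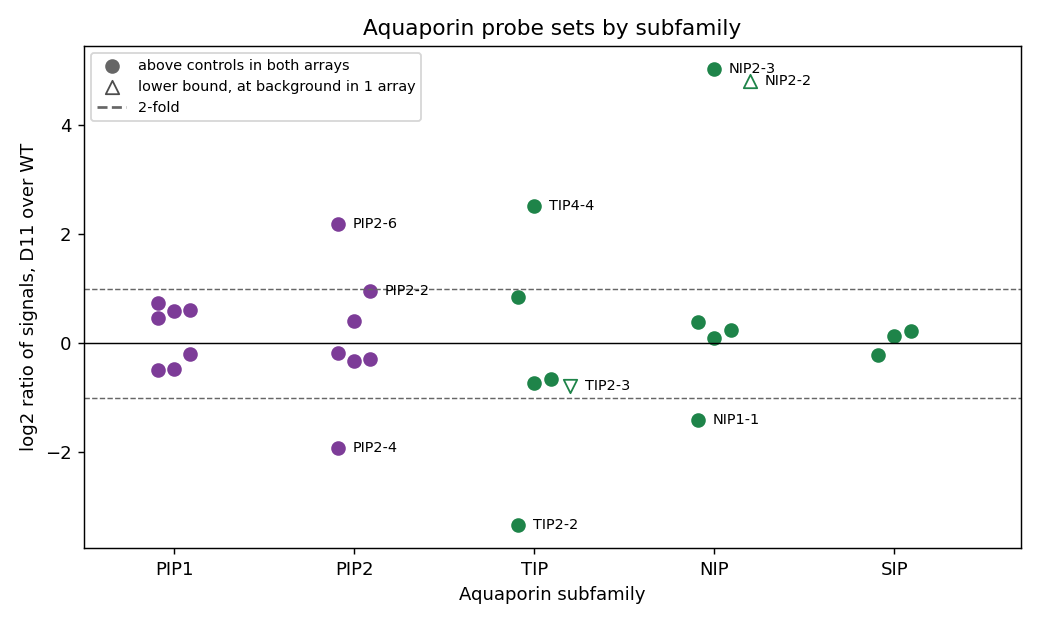
Log2 ratio of D11 over WT signal of aquaporin probe sets by subfamily, with filled circles for signals above background in both arrays, open triangles for lower bounds where 1 array was at background, and dashed lines at 2-fold (horizontal offsets only separate the points). The PIP1 points lie between -0.50 and 0.73 and the PIP2 points between -1.92 and 2.18, while TIP and NIP hold wider ratios.

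Genes of proton pumps, of potassium channels and carriers, and of sugar carriers were read by 14 probe sets. Of these, 7 were above background in both stems. None of these 7 differed by 2-fold. With so few probe sets this says little, as 6.2% of all maize probe sets above the controls were at least 2-fold higher and 3.95% lower. The plasma membrane proton pump gene mha4 (LOC542052) had a signal of 3558 in D11 against 4035 in WT, a ratio of 0.88. The vacuolar pyrophosphatase genes had 4018 in D11 against 4295 in WT for vpp3 (LOC542327), and 1927 in D11 against 2174 in WT for vpp1 (LOC542328). The potassium channel gene ZMK2 (LOC542002) had 550 in D11 against 332 in WT, 1.66-fold higher, beyond the spikes. For the sucrose carrier gene sut1 (LOC541615) the signal was 1620 in D11 against 1264 in WT, 1.28-fold higher, within the spikes.

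The directions of the 3 members with the widest ratios held under 5 other scalings of the arrays. The ratio of PIP2-6 was 4.01 to 5.39, that of PIP2-4 was 0.25 to 0.31, and that of PIP2-2 was 1.73 to 2.32. The highest values came from scaling by 13 probe sets of housekeeping genes, whose median log2 ratio was -0.25, and which raised every ratio by that amount. The 4 readings of PIP1-3/PIP1-4 above background stayed higher in D11, and PIP1-1, PIP1-2 and PIP2-1 stayed lower. The ratio of PIP1-1 was 0.69 to 0.84 and that of PIP1-2 was 0.70 to 0.87. With quantile, lowess and housekeeping scaling, PIP1-1 and PIP1-2 differed by less than 1.38-fold, the largest spike ratio of the deposited signals. A pair of weak readings, those of PIP1-5 and of the first PIP2-3 probe set, turned to ratios over 1 with housekeeping scaling.

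**Figure D5:**
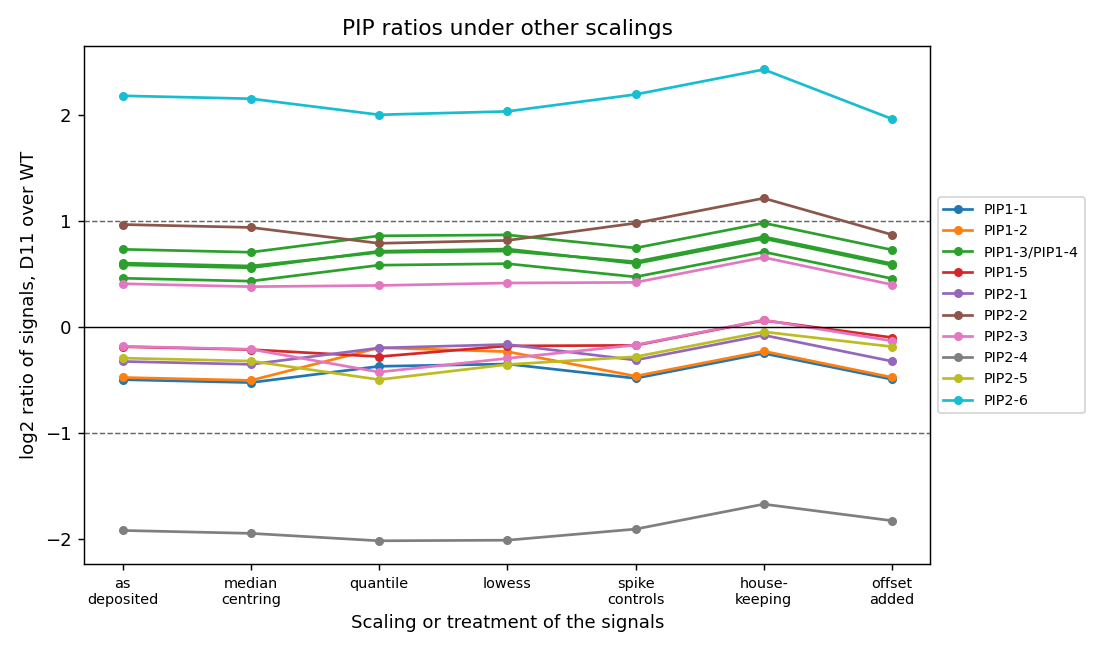
Log2 ratio of D11 over WT signal of the 14 PIP probe sets above background under the deposited scaling, the 5 other scalings and an added constant of 24.7, with 1 line per probe set, 1 colour per gene and dashed lines at 2-fold. PIP2-6 and PIP2-4 keep their places outside the dashed lines, and PIP2-2 crosses 2-fold with housekeeping scaling alone.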

How the data were processed

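The deposited intensities were made by the authors with the MAS 5.0 algorithm, which corrects the background, summarizes the probes of each probe set and scales the array. GeneSpring is named in the methods, MAS5 and Affymetrix Expression Console in the submitters' processing notes. The intensities were used on their linear scale. The 113 control probe sets were set aside and 17621 maize probe sets kept. With 1 array per genotype nothing was tested. The number of arrays limits the precision. Names came from the platform annotation and RefSeq, which gave 1 symbol to 1452 probe sets. Members and lists were chosen with earlier results of these data known. All members are named, and of each other list up to 4 probe sets with the widest ratios, provided that at least 1 signal was over its array median. Wall and leaf lists are summarized, and of the kernel list the 1 detected probe set is named, with the other readings of its gene. The second NIP2-1 reading was named after its value was seen. A name match to SIP (LOC542299) and one to leaf photosynthesis (LOC541677) were accidental and left out. The tassel and anther pattern found no gene. A lower bound used the brightest Tag or TrpnX signal of the dimmer array. The alternatives were 5 scalings (median, quantile, lowess with a span of 0.3, spike controls, housekeeping genes), an offset at the 25th percentile of both arrays (24.7), the control floor, a minimum at the array median, and other ways of counting probe sets. The ratio and scaling steps were tested on simulated data with changes planted in bright probe sets only. Background calls, lower bounds and the ratios of weak signals were not tested in this way. Python 3.11.15 with numpy 2.4.6, pandas 2.3.3 and statsmodels 0.14.6 was used.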

Additional observations from a re-analysis of the deposited data

How the results depend on the processing

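The counts of PIP probe sets past a threshold depended little on the scaling. Scaling by housekeeping genes raised the median log2 ratio of all maize probe sets by 0.25. It gave 2 PIP probe sets at least 2-fold higher, PIP2-6 and PIP2-2, and 1 at least 5-fold higher, PIP2-6. The PIP median was then 0.29. This shift applies to all maize probe sets, whose shares past these thresholds under it are not given here. The PIP counts under it therefore have no background beside them. Among the 9 probe sets whose signals were over the median of each array, 0 were at least 2-fold higher and 1 (11.11%) at least 2-fold lower. The WT signal of PIP2-6 was under the median, so it was not among them. Of the 8266 maize probe sets over both medians, 3.28% were at least 2-fold higher and 3.05% at least 2-fold lower. The median log2 ratio of the family had no stable sign. It was 0.41 over the 9 PIP probe sets above both medians, and -0.16 with signals raised to the control floor. Without the probe sets whose IDs end in _s_at or _x_at it was -0.18. With each gene counted once it was -0.19 by its mean and -0.24 by its brightest probe set. The value of -0.16 is that of probe sets at background, where the ratio of the floors replaces the signals. The floor lowered the median of all maize probe sets by 0.15. The remaining alternatives, among them leaving out the 2 probe sets at background, which was chosen after seeing the data, kept each count and moved the median by less than the SD of the spike ratios, 0.20. No paired analysis was possible because each genotype has 1 array. Weak signals limit PIP1-5, PIP2-5 and the first PIP2-3 probe set.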
